A study of Arabidopsis thaliana with 12 samples.

Results

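The 10 stress zinc finger genes of the Arabidopsis thaliana ZAT family described here were followed across 12 libraries of whole seedlings aged 7 days. The members are STZ (also called ZAT10, AT1G27730), ZAT6 (AT5G04340), AZF1 (AT5G67450), AZF2 (AT3G19580), AZF3 (AT5G43170), ZAT7 (AT3G46090), ZAT8 (AT3G46080), ZAT12 (AT5G59820), ZAT11 (AT2G37430) and ZAT5 (AT2G28200). They were taken by gene ID, and all 10 are among the 21271 genes listed in at least 1 of the deposited tables. The family was chosen by the FPKM of STZ, which was seen among the largest rises of the trb45 lines against WT, so the values of the trb45 lines against WT are given below as a description, with no p-value, and nothing is read from their counts of calls.

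The seedlings carried mutations in genes of TELOMERE REPEAT BINDING (TRB) proteins, DNA-binding proteins known from telomere repeats and from Polycomb target genes. There were 3 libraries each of trb45 line 1 and trb45 line 2, made independently and affected in TRB4 and TRB5, of the trb123 triple mutant, affected in TRB1, TRB2 and TRB3, and of WT (Col-0). The labels do not describe the alleles, the pooling of plants or the source of the replicates, so the p-values measure the spread between these libraries, which may be technical. After 2 days of cold, all groups grew untreated on sugar-containing plates at 23 °C in days of 16 h light and nights of 8 h, and polyA RNA was sequenced.

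ZAT proteins carry a pair of C2H2 zinc fingers with the plant-specific QALGGH motif and, in most members, an EAR motif that recruits TOPLESS-type corepressors. Their genes are known as early responders whose transcripts accumulate within minutes to hours of salt, cold, wounding, touch or reactive oxygen, and then decline. STZ and ZAT12 are known for roles in tolerance of salt, cold, strong light and oxidative stress, AZF1, AZF2 and AZF3 as repressors of genes for osmotic stress and auxin responses, and ZAT6 for phosphate uptake, root growth and cadmium tolerance.

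The sequences came from the TAIR10.1 genome and its RefSeq annotation. All 10 genes consist of 1 exon, and the coding sequence of each holds the codons for QALGGH at 2 places, here in capitals. The stretches of STZ, ZAT12, ZAT7 and ZAT8 are shown because the results turn on these genes.

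STZ finger 1: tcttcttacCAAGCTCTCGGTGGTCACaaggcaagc
STZ finger 2: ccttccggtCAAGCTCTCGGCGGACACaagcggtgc
ZAT12 finger 1: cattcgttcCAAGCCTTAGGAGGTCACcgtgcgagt
ZAT12 finger 2: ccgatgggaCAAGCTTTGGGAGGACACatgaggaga
ZAT7 finger 1: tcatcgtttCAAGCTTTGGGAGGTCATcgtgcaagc
ZAT7 finger 2: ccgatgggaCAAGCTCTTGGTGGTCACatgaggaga
ZAT8 finger 1: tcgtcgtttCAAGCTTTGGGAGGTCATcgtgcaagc
ZAT8 finger 2: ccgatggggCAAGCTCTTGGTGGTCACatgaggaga

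ZAT7 and ZAT8 stand 2581 bases apart on the minus strand of chromosome 3. Their coding sequences are 93.6% identical over 486 aligned bases, the most alike pair of members, and the next pair, ZAT6 and STZ, is 79.6% identical over 666. The longest run that ZAT7 and ZAT8 share without a mismatch is 44 bases, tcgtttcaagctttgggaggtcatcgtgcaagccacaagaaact, which spans the QALGGH codons of finger 1. How the authors' counting shared reads between such copies is not given in the sources used here, so the split of the signal between ZAT7 and ZAT8 is uncertain. AZF3 overlaps AT5G43160 on the opposite strand. The libraries were stranded, but the counting is not stated to have used strand, so reads of AZF3 and of AT5G43160 may not have been told apart.

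The promoters are printed for STZ and ZAT12, which had the largest rises in trb123, for the near-copies ZAT7 and ZAT8, and for AZF3, the 1 member of the 10 with neither marked motif in its window. These 5 were picked with their values known. Each run holds the 250 bases before the annotated start, in the gene's own direction, and capitals mark 2 motifs on either strand, TTGAC (the core of the W-box bound by WRKY factors; GTCAA on the other strand) and ACGTG (the core of abscisic acid response elements; CACGT on the other strand).

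STZ, chr1:9649324-9649573, minus strand: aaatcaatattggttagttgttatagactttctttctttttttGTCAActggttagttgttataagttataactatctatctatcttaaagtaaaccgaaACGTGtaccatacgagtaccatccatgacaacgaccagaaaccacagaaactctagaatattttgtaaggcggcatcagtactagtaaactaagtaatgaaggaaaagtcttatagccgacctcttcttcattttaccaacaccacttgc
ZAT12, chr5:24102564-24102813, plus strand: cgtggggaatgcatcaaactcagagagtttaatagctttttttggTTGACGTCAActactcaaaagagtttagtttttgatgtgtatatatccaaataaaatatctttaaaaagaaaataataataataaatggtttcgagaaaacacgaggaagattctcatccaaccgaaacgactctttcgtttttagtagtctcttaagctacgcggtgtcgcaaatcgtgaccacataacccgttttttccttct
ZAT7, chr3:16926884-16927133, minus strand: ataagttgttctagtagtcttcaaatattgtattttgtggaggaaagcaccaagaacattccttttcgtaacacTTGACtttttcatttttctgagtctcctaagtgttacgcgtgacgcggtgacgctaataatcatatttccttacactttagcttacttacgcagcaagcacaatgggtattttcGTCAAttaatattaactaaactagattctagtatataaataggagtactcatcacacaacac
ZAT8, chr3:16923300-16923549, minus strand: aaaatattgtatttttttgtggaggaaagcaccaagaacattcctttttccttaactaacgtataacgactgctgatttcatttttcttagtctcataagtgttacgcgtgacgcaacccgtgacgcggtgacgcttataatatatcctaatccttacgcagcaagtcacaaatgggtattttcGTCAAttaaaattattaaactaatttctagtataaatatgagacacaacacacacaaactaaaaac
AZF3, chr5:17331647-17331896, minus strand: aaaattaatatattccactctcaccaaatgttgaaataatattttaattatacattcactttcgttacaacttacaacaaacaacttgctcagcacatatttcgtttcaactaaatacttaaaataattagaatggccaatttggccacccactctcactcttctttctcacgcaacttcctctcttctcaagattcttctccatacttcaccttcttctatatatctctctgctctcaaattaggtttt

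In windows of 250 bases before to 50 bases after the start, TTGAC stood in 9 of the 10 members, all but AZF3, and in 50.5% of all 27443 windows of that length. ACGTG stood in 4 of 10 members, STZ, ZAT6, ZAT12 and AZF2, and in 26.7% of all windows. In STZ, ZAT6 and AZF2 the matches within the 50 bases after the start include an overlapping pair on opposite strands. Neither the telobox AAACCCTA, the telomere-like motif that TRB proteins are known to bind, nor CGCGTT, the rapid stress response element, stood in a window of any of the 10 members, on either strand. AAACCCTA stood in 6.22% of all windows and CGCGTT in 3.4%. The ZAT7 and ZAT8 promoters were 92.0% identical over 212 aligned bases.

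Values are FPKM, fragments per kilobase of transcript, scaled to the total fragments of a library. Inferred depths were 22622000 to 24342000 fragments per library, at which the WT values of ZAT7, ZAT8 and ZAT11 correspond to about 3 to 17 fragments. The targeted genes matched the labels in direction: TRB4 (AT1G17520) lay at 2.96 to 6.10 FPKM in the trb45 lines, against 8.16 to 11.04 in WT, and TRB5 (AT1G72740) at 2.85 to 3.51 in the trb45 lines, against 11.04 to 12.5 in WT. TRB1, TRB2 and TRB3 together spanned 0.65 to 3.12 FPKM in trb123, against 6.34 to 13.3 in WT. Every log2 fold change is taken on log2(FPKM + 1), where the pseudocount makes the change of low genes too small, and a gene is called when its limma p, adjusted by Benjamini-Hochberg over the 18700 genes tested, is under 0.05. Of the 10 members, 9 were tested over all 12 libraries. ZAT11 is not listed in the table of line 2. Libraries also fell on 2 sides in 226 genes, a split that no label names: WT and line 1 replicates 1 and 2 stood on one side, and line 1 replicate 3, line 2 and trb123 on the other. All of trb123 therefore lies across the split from all of WT, and a term for the split rests on line 1 alone.

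**Figure D1:**
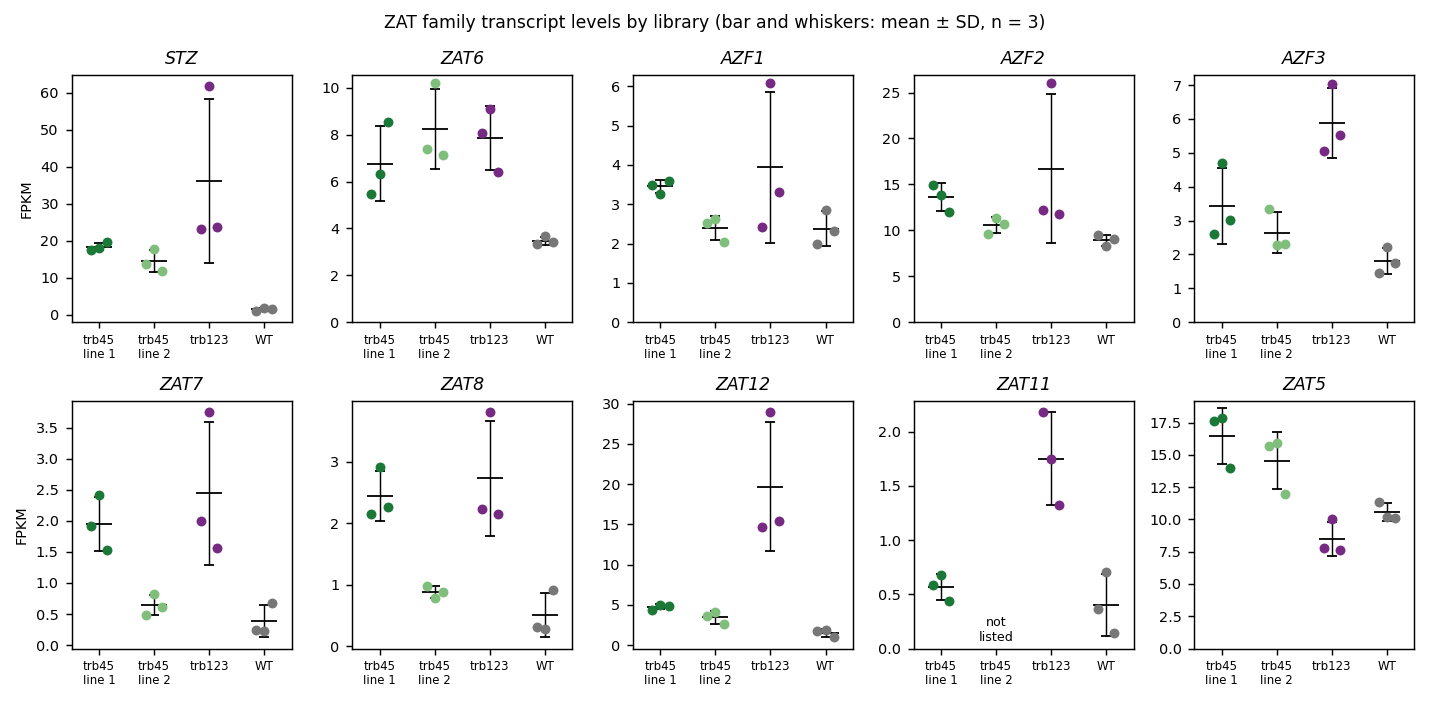
FPKM of each of the 10 ZAT family genes in every library, on linear axes, with the groups along the horizontal axis, points for libraries and the bar and whiskers for mean ± SD of 3 libraries. STZ is at 11.9 FPKM or more in every mutant library and at 1.83 or less in every WT library, and the middle one of the trb123 points (replicate 2) is the highest of its group in 9 of the 10 genes.

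In trb123, 7 of the 9 tested members rose against WT, none fell, and AZF1 and ZAT5 did not pass the test. Of the 7, ZAT7 and ZAT8 had passed the filter on low values only through trb123 and line 1. The called share of all genes in that comparison was 59.4%, with 33.9% called higher and 25.5% lower. The median log2 fold change of the 9 members was 1.28 and that of all tested genes 0.07. This contrast did not choose the members, but it shares its WT libraries with the one that did.

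STZ, the salt tolerance zinc finger, had the largest rise. Its level was 23.1, 61.8 and 23.6 FPKM in the trb123 libraries, against 0.98, 1.83 and 1.43 FPKM in WT. The groups did not overlap, and 1 trb123 library stood far above the other two. The ratio of mean FPKM was 25.6, and the log2 fold change was 3.80 (SE 0.29, adjusted p = 3.69e-07). Without trb123 replicate 2 the ratio was 16.5 and the log2 fold change 3.35 (adjusted p = 3.70e-08).

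ZAT12, known as a regulator of the response to reactive oxygen and cold, followed. It had 14.7, 29.0 and 15.4 FPKM in trb123, against 1.78, 1.94 and 0.99 FPKM in WT. Every trb123 library lay above every WT library, by a ratio of means of 12.5. The log2 fold change was 2.96 (SE 0.23, adjusted p = 3.50e-07), and 2.66 without trb123 replicate 2, where the ratio was 9.6.

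The tandem neighbours ZAT7 and ZAT8 rose too, and their WT levels were very low. ZAT7, whose overexpression is known to raise salt tolerance, had 2.00, 3.75 and 1.57 FPKM in trb123, against 0.25, 0.22 and 0.68 FPKM in WT. ZAT8 had 2.23, 3.81 and 2.16 FPKM in trb123, against 0.32, 0.28 and 0.92 FPKM in WT. In WT both genes were at their highest in replicate 3, and neither group overlapped the other. No WT or line 2 library reached 1 FPKM for either gene. Both passed the filter only through trb123 and line 1, so their p describe the fit. The log2 fold changes were 1.28 for ZAT7 (SE 0.21, adjusted p = 0.000178) and 1.31 for ZAT8 (SE 0.18, adjusted p = 5.55e-05). With a pseudocount of 0.1 in place of 1 they were 2.42 and 2.33, nearer to the ratios of mean FPKM of 6.37 and 5.39.

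AZF3 had 5.06, 7.03 and 5.54 FPKM in trb123, against 1.45, 2.21 and 1.75 FPKM in WT. The groups did not overlap, and the log2 fold change was 1.29 (SE 0.18, adjusted p = 5.51e-05). ZAT6 had 8.06, 9.09 and 6.41 FPKM in trb123, against 3.33, 3.66 and 3.44 FPKM in WT, a tight group of low values below all trb123 libraries. Its log2 fold change was 0.97 (SE 0.16, adjusted p = 0.000229).

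AZF2 had the highest WT level of its subgroup, and its rise leaned on 1 library. It had 12.2, 26.1 and 11.8 FPKM in trb123, against 9.49, 8.29 and 9.03 FPKM in WT. The groups did not overlap, but trb123 replicates 1 and 3 lay near the highest WT library. Its log2 fold change of 0.74 (SE 0.22, adjusted p = 0.0105) became 0.39 without trb123 replicate 2 (adjusted p = 0.0132).

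AZF1 and ZAT5 did not pass the test. AZF1 had 2.42, 6.09 and 3.31 FPKM in trb123, against 1.98, 2.85 and 2.31 FPKM in WT, and the groups overlapped. Its log2 fold change was 0.49 (SE 0.21, adjusted p = 0.0561), and it was 0.19 without trb123 replicate 2 (adjusted p = 0.277) and 0.72 without trb123 replicate 1 (adjusted p = 0.00726). ZAT5 was the single member below WT in trb123, with 7.79, 10 and 7.61 FPKM there, against 11.4, 10.2 and 10.1 FPKM in WT. The groups did not overlap, though trb123 replicate 2 reached nearly to the lowest WT library. Its log2 fold change was -0.29 (SE 0.14, adjusted p = 0.0781). Without trb123 replicate 2 it was -0.41 (adjusted p = 0.0272). With the term for the split between libraries the sign turned (0.0246, adjusted p = 0.944).

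ZAT11, linked to programmed cell death, could be tested in the tables of trb123 and WT alone. It had 2.18, 1.75 and 1.32 FPKM in trb123, against 0.36, 0.71 and 0.14 FPKM in WT, without overlap. The log2 fold change was 0.98 (SE 0.17, adjusted p = 0.000669) in that fit, in which 66.7% of 18629 genes were called. ZAT11 passed the filter of that fit only through its trb123 libraries, since no WT library reached 1 FPKM. The p therefore describes the fit and supports nothing about ZAT11. It was the one member not highest in trb123 replicate 2. In line 1 it had 0.59, 0.68 and 0.44 FPKM, within the range of WT.

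Of the 9 tested members, 7 lay wholly above and 1 wholly below WT in trb123, where 39.6% of all tested genes lay wholly above and 30.6% wholly below. With a term for the split between libraries, 5 of the 7 stayed called: STZ (3.68, adjusted p = 0.000461), ZAT12 (2.93, adjusted p = 0.000393), ZAT7 (1.60, adjusted p = 0.0076), ZAT8 (1.42, adjusted p = 0.00892) and AZF3 (1.47, adjusted p = 0.00619). ZAT6 became 0.50 (adjusted p = 0.156) and AZF2 0.99 (adjusted p = 0.0807). In this fit 5238 of the 18700 genes were called, and 11108 without the term. The term rests on line 1 alone, so the parts of the split and of the genotype in trb123 against WT cannot be told apart by this fit.

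Replicate 2 held the highest value of trb123 in 9 of the 10 members, as in 36.8% of all tested genes. Replicate 2 also held the most of the highest values in each other group: 6 of 10 members in line 1 (36.6% of all tested genes), 7 of 9 in line 2 (29.8%) and 6 of 10 in WT (31.3%). On the log2(FPKM + 1) scale replicate 2 of trb123 lay at least 0.5 above the mean of replicates 1 and 3 in 6 of the 9 tested members, against 3.24% of all tested genes, whose median difference was about 0 (0.000407). By ratio to the mean of replicates 1 and 3, STZ was 2.65, AZF2 2.17, AZF1 2.13, ZAT7 2.1, ZAT12 1.92 and ZAT8 1.74, while ZAT6, AZF3, ZAT5 and ZAT11 were between 1.0 and 1.33.

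Genes known to respond to touch moved with replicate 2 within trb123. TCH4, a cell wall xyloglucan enzyme, had 43.9, 137 and 45.4 FPKM in the trb123 libraries, against 16.9, 24.3 and 19.5 FPKM in WT. TCH3, a calmodulin-like protein, had 34.8, 55.1 and 34.95 FPKM in trb123, against 5.79, 7.08 and 5.71 FPKM in WT. TCH2, another calmodulin-like protein, had 21.1, 30.9 and 21.5 FPKM in trb123, against 18.5, 22.6 and 17.8 FPKM in WT. Within trb123 all 3 were highest in replicate 2, and their summed level was 99.8 to 223 FPKM in trb123, against 41.2 to 54.0 in WT. TCH2 was higher still in line 1 replicates 1 and 2 (34.12 and 52.07 FPKM), and in line 2 it lay below WT, at 8.09 to 11.97 FPKM. Between trb123 and WT, TCH3 (2.54, adjusted p = 1.16e-07) and TCH4 (1.65, adjusted p = 0.000944) rose, and TCH2 did not pass the test (0.29, adjusted p = 0.393). In that comparison 59.4% of all genes were called. With the term for the split all 3 were called, TCH2 included, beside 5238 of the 18700 genes. The part of touch in the members' values was not tested.

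**Figure D2:**
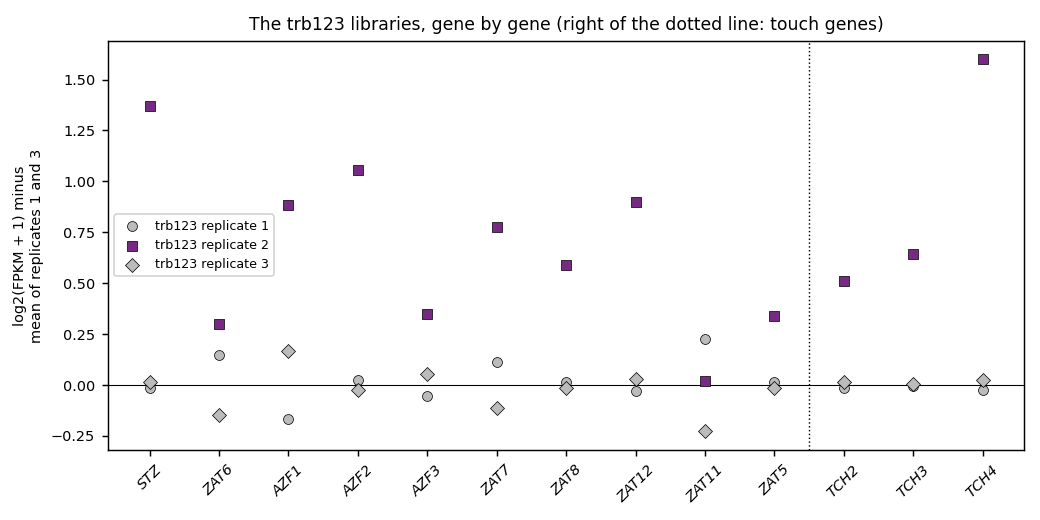
Level of each ZAT family gene and of 3 touch genes in the 3 trb123 libraries, as log2(FPKM + 1) minus the mean of replicates 1 and 3. Squares (replicate 2) lie at 1.37 for STZ and 0.0179 for ZAT11, while replicates 1 and 3 stay close to 0 for most genes.

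Against WT, both trb45 lines had positive log2 fold changes for all 9 tested members, though the lowest in line 2, that of AZF1, was 0.0138. In line 2 ZAT7, ZAT8 and AZF1 overlapped WT, with ratios of mean FPKM of 1.68, 1.76 and 1.01. Line 1 and line 2 were averaged, and the values are a description, since this contrast drew attention to the family. STZ had 17.6, 18.04 and 19.5 FPKM in line 1 and 13.8, 17.7 and 11.9 FPKM in line 2, against 0.98, 1.83 and 1.43 FPKM in WT. The levels of all 6 trb45 libraries were several times the highest WT level, with ratios of mean FPKM of 13.0 for line 1 and 10.2 for line 2. The log2 fold change was 2.85 (SE 0.25) for both lines together.

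The other members differed less from WT. ZAT12 had 4.42, 5.06 and 4.89 FPKM in line 1 and 3.69, 4.08 and 2.61 FPKM in line 2, against 1.78, 1.94 and 0.99 FPKM in WT, a log2 fold change of 1.00 (SE 0.20) without overlap. ZAT6 had 5.47, 6.31 and 8.53 FPKM in line 1 and 7.40, 10.2 and 7.13 FPKM in line 2, against 3.33, 3.66 and 3.44 FPKM in WT, a log2 fold change of 0.90 (SE 0.14). Its trb45 and WT levels did not overlap either. The remaining log2 fold changes of both lines were 0.78 for ZAT8, 0.68 for ZAT7, 0.51 for AZF3, 0.51 for ZAT5, 0.38 for AZF2 and 0.21 for AZF1.

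These contrasts chose the family, so the following counts describe the fit over all genes and support nothing about the members. In that fit 7 of the 9 tested members were called higher for both lines together, beside 28.7% of all genes called and 12.8% called higher. For line 1 it was 7 of 9, beside 18.2% called and 7.77% called higher. For line 2 it was 4 of 9 (STZ, ZAT6, ZAT12 and ZAT5), beside 30.5% called and 14.9% called higher. With a term for the split the counts were 2, 7 and 0, beside 1118, 3290 and 127 of the 18700 genes. Within one side of the split, line 1 replicates 1 and 2 against WT, the log2 fold change of STZ was 2.98 (SE 0.16).

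**Figure D3:**
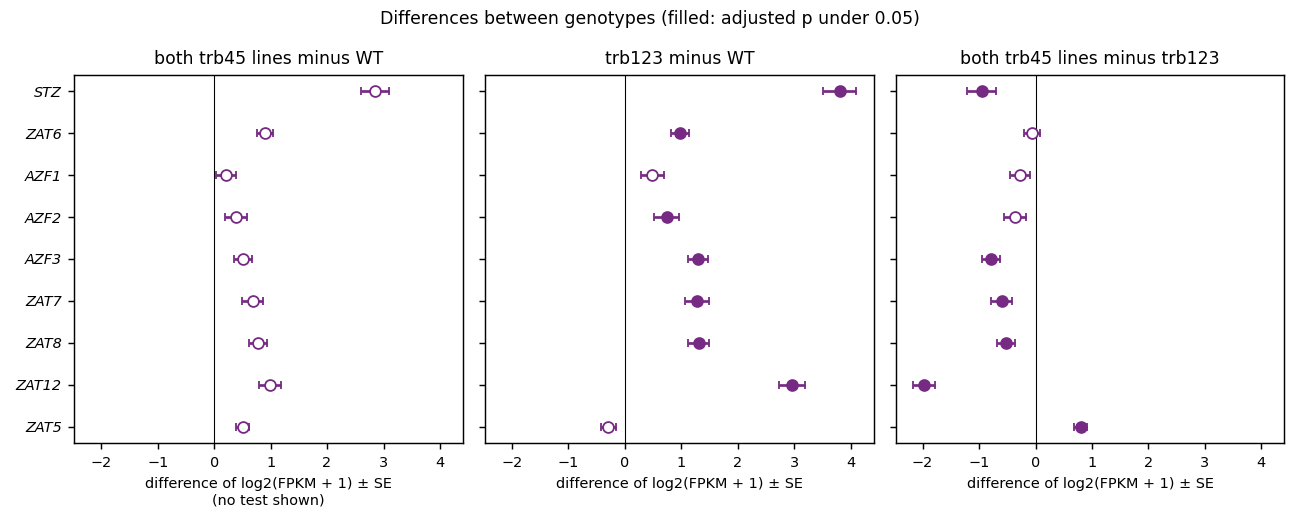
Differences of log2(FPKM + 1) with standard errors for the 9 tested members, from the fit over 12 libraries, for both trb45 lines minus WT (no test shown), trb123 minus WT and both trb45 lines minus trb123. Filled points passed an adjusted p of 0.05. STZ has the largest difference in the left and middle panels (2.85 and 3.80), and ZAT5 (0.80) is the one member above 0 among the filled points on the right.

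Set beside each other, the average of the trb45 lines was lower than trb123 in 5 of the 9 tested members and higher in 1. Over all genes 59.6% were called, 36.2% lower and 23.4% higher in trb45. The trb45 libraries are those on which the choice of STZ rested.

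ZAT12 showed the largest difference, with the trb45 levels above at 2.61 to 5.06 FPKM, against 14.7 to 29.0 FPKM in trb123. The log2 fold change was -1.97 (SE 0.20, adjusted p = 2.40e-06), and no trb45 library reached a trb123 library. STZ lay at 11.9 to 19.5 FPKM in trb45, against 23.1 to 61.8 FPKM in trb123, again without overlap. Its log2 fold change was -0.96 (SE 0.25, adjusted p = 0.00552), and without trb123 replicate 2 it was -0.50 (adjusted p = 0.0139).

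AZF3 had 2.60, 4.71 and 3.01 FPKM in line 1 and 3.34, 2.29 and 2.30 FPKM in line 2, against 5.06, 7.03 and 5.54 FPKM in trb123. Every trb45 library lay below every trb123 library, with a log2 fold change of -0.78 (SE 0.16, adjusted p = 0.000821). ZAT7 (-0.60, SE 0.18, adjusted p = 0.0113) and ZAT8 (-0.52, SE 0.16, adjusted p = 0.0120) were also lower in the average of the trb45 lines. Both calls were lost without trb123 replicate 2 (ZAT7 -0.34, adjusted p = 0.0863; ZAT8 -0.33, adjusted p = 0.0929). The lines differed here. By ratio of mean FPKM to trb123, line 1 was at 0.799 for ZAT7 and 0.895 for ZAT8, with overlapping libraries. Line 2 was at 0.264 and 0.326, without overlap.

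ZAT5 ran the other way. It had 17.6, 17.8 and 14 FPKM in line 1 and 15.7, 15.95 and 12 FPKM in line 2, against 7.79, 10 and 7.61 FPKM in trb123. All 6 trb45 libraries were above the highest trb123 library, and the log2 fold change was 0.80 (SE 0.12, adjusted p = 7.08e-05). ZAT6 (-0.07, SE 0.14, adjusted p = 0.695), AZF1 (-0.28, SE 0.18, adjusted p = 0.195) and AZF2 (-0.36, SE 0.19, adjusted p = 0.120) did not pass the test. AZF2 had 14.97, 13.8 and 11.97 FPKM in line 1 and 9.61, 11.4 and 10.7 FPKM in line 2, against 12.2, 26.1 and 11.8 FPKM in trb123, so that only replicate 2 of trb123 lay above all trb45 libraries. Without overlap were 3 members lower and 1 higher in trb45, as 30.5% and 18.6% of all tested genes were.

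Line 2 and trb123 stood on the same side of the split, and in a fit of those 6 libraries the same 6 members were called (57.6% of 18262 genes). The log2 fold changes of line 2 against trb123 were -2.16 for ZAT12 (adjusted p = 0.000151), -1.13 for STZ (adjusted p = 0.0217), -1.02 for ZAT7 (adjusted p = 0.0039), -0.96 for ZAT8 (adjusted p = 0.00147), -0.92 for AZF3 (adjusted p = 0.000978) and 0.71 for ZAT5 (adjusted p = 0.00234). ZAT7 and ZAT8 were under 1 FPKM in every line 2 library, so they passed the filter of that fit only through trb123. Their calls there are a description. With a term for the split in the fit of 12 libraries, the 6 calls of both lines against trb123 were kept, beside 10542 of the 18700 genes called.

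Line 1 and line 2 differed in 2 of the 9 tested members, ZAT7 and ZAT8, where 4.63% of all genes were called. ZAT7 had 1.91, 2.41 and 1.53 FPKM in line 1, against 0.49, 0.82 and 0.62 FPKM in line 2. ZAT8 had 2.16, 2.92 and 2.26 FPKM in line 1, against 0.99, 0.79 and 0.89 FPKM in line 2. Neither pair of groups overlapped, and line 2 lay close to WT for both genes. The log2 fold changes were 0.84 for ZAT7 (SE 0.21, adjusted p = 0.0443) and 0.86 for ZAT8 (SE 0.18, adjusted p = 0.0393). Neither call was kept in a fit of those 6 libraries alone (ZAT7 adjusted p = 0.191; ZAT8 adjusted p = 0.145), with the term for the split, or without line 1 replicate 1 or 2, line 2 replicate 1 or 3, trb123 replicate 1 or 3, or WT replicate 1 or 2, where 0 members were called. The genes are near-copies, so the calls of ZAT7 and ZAT8 are not independent. Both genes passed the filter on low values only through line 1 and trb123, so these calls are a description.

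STZ (0.34, SE 0.29, adjusted p = 0.446) and ZAT12 (0.39, SE 0.23, adjusted p = 0.260) did not pass between the lines, and 8 of the 9 log2 fold changes were positive, ZAT6 being the exception (-0.26, adjusted p = 0.304). The median of the 9 was 0.34, and that of all tested genes -0.056. AZF1 had 3.49, 3.27 and 3.60 FPKM in line 1, against 2.53, 2.63 and 2.05 FPKM in line 2. The groups did not overlap, yet the log2 fold change of 0.39 did not pass the test (SE 0.21, adjusted p = 0.216). In all, 5 members lay higher in line 1 without overlap, where 8.07% of all tested genes did.

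By mean FPKM, 7 of the members measured in all 4 groups (STZ, ZAT12, ZAT7, ZAT8, AZF1, AZF2 and AZF3) had the order trb123, line 1, line 2, WT from high to low. The place of the trb45 lines above WT is the contrast that chose the family. The share of all genes with that order was not taken, so the count is a description. For ZAT7, ZAT8, AZF1 and AZF2 trb123 came first only with its replicate 2: the means of trb123 replicates 1 and 3 were 1.785, 2.195, 2.865 and 12.035 FPKM, against 1.95, 2.45, 3.45 and 13.6 FPKM in line 1. Neighbours in that order overlapped at several steps: trb123 and line 1 for ZAT7, ZAT8, AZF1 and AZF2, line 1 and line 2 for STZ and AZF3, and line 2 and WT for ZAT7, ZAT8 and AZF1. ZAT6 had its highest mean in line 2 (8.25 ± 1.71 FPKM), then trb123 (7.85 ± 1.35), line 1 (6.77 ± 1.58) and WT (3.48 ± 0.17; SD, n = 3 each), with the 3 mutant groups overlapping. ZAT5 had its highest mean in line 1 (16.5 ± 2.14 FPKM), then line 2 (14.6 ± 2.21), WT (10.6 ± 0.71) and trb123 (8.47 ± 1.33; SD, n = 3 each), with an overlap only between the lines. In WT the highest members per length were ZAT5 and AZF2, while in trb123 they were STZ and ZAT12, by mean FPKM.

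The genes whose levels followed STZ most closely were found by the root-mean-square difference of log2(FPKM + 1), centred on each gene's mean over the 12 libraries, among tested genes whose mean was 5 FPKM or more. The nearest 5 were ERF104 (0.353), an ethylene response factor, AT1G32920 (0.441), AT5G51190 (0.492), TEM1 (0.492), a RAV-type repressor of flowering, and TCH3 (0.614). ERF104 had 47.7, 56.8 and 51.2 FPKM in line 1, 29.9, 42.6 and 23.2 in line 2 and 36.3, 88.0 and 38.1 in trb123, against 4.96, 5.99 and 4.27 in WT. All 5 were, like STZ, highest in trb123 replicate 2 and lowest in the WT libraries. The points compared share their groups and libraries, and STZ was chosen for its trb45 levels, so this is a description.

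**Figure D4:**
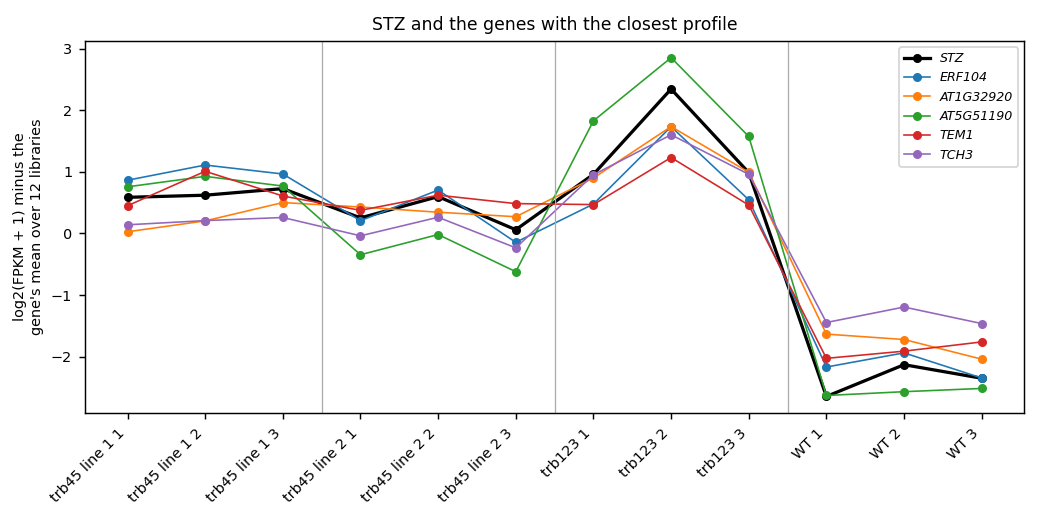
Profiles of STZ (thick black line) and of the 5 genes with the smallest root-mean-square difference from it, as log2(FPKM + 1) minus each gene's mean over 12 libraries, with libraries along the horizontal axis. All 6 lines lie below 0 in the 3 WT libraries and peak in trb123 replicate 2; ERF104 is the closest at 0.353.

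Other genes of the pathway came from fixed lists. Their counts stand beside 59.4% of all genes called in trb123 against WT and 59.6% in both trb45 lines against trb123. A share near these is not a result about a list. With the term for the split, 5238 and 10542 of the 18700 genes were called in these comparisons. Of the 13 other ZAT-type zinc finger genes listed, 5 were tested. In trb123 against WT 1 of them rose and 2 fell, and AT5G03510 had the one change above 1 in size, with 8.80, 8.97 and 9.42 FPKM in trb123, against 4.72, 2.40 and 3.71 FPKM in WT (1.16, adjusted p = 0.000444). Its trb45 levels were lower than in trb123 (-1.26, adjusted p = 6.68e-05). Of the 7 EAR corepressor genes, the TOPLESS family with SAP18 and HDA19, 2 rose and 1 fell, none by more than 0.33 in size.

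Upstream of the family stand MAP kinases, NADPH oxidases and stress regulators. Of 12 such genes, 5 rose and 2 fell in trb123 against WT, a share close to that of all genes (59.4%). MKK9, a MAP kinase kinase, changed most, with 6.43, 12.8 and 5.60 FPKM in trb123, against 1.97, 2.34 and 2.05 FPKM in WT (1.49, adjusted p = 0.0002). Within trb123 it was highest in replicate 2, but line 1 replicates 2 and 3 were higher still (12.84 and 14.74 FPKM, against 12.75). In both trb45 lines against trb123, 1 of the 12 was higher and 3 were lower. With the term for the split, limma called 0 of the other ZAT-type genes, the corepressors and the upstream genes in trb123 against WT, where 1, 1 and 5 of them had an unadjusted p under 0.05.

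Genes for scavenging reactive oxygen, a process tied to ZAT12 and STZ, moved in both directions. Of 8 tested, 5 rose and 2 fell in trb123 against WT, and in both trb45 lines against trb123 3 were higher and 3 lower, beside 59.4% and 59.6% of all genes called. In each of these comparisons 5 of the 8 were called with the term for the split. The iron superoxide dismutase FSD1 rose by 1.87 in trb123 (adjusted p = 8.87e-07), and the copper/zinc superoxide dismutase CSD2 fell by 2.01 (adjusted p = 1.94e-05).

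Of 11 genes reported to act downstream of these repressors, 10 were tested, and 3 of them rose and 5 fell in trb123 against WT, beside 59.4% of all genes called. The 3 that rose make glutathione and phytochelatins (GSH1 0.45, GSH2 0.39, PCS1 0.55), and are known from work on ZAT6. The auxin-induced SAUR20 fell by 2.698 (adjusted p = 3.16e-07) and SAUR63 fell by 1.08 (adjusted p = 0.000603), and these are known from work on AZF1 and AZF2. Of the 10 tested, 3 were called with the term for the split. The cold-regulated COR47 fell by 1.15 (adjusted p = 4.12e-05). In both trb45 lines against trb123, 5 of the 10 were higher and 2 lower, led by SAUR20 (2.95, adjusted p = 2.99e-08), SAUR63 (1.22, adjusted p = 6.33e-05) and NCED3, an enzyme of abscisic acid synthesis (1.17, adjusted p = 0.00188).

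Markers of plant parts were measured in the same libraries. The summed level of 7 root markers was 704 to 718 FPKM in trb123, against 910 to 1088 in WT, with 1 of the 7 higher and 4 lower, beside 59.4% of all genes called. Most of the sum is PYK10 (633 to 638 FPKM in trb123, against 794 to 947 in WT). The one root marker that rose, the nitrate transporter gene NRT2.1, had the largest change (1.67, adjusted p = 1.10e-06), and EXPA7 (0.45) and COBL9 (0.14) did not pass the test. Of the 7, 2 were called with the term for the split. Of 7 shoot markers 4 were lower and none higher in trb123, beside 25.5% of all genes called lower and 33.9% called higher. CA1 fell most (-2.13, adjusted p = 1.57e-07), and 3 of the 7 were called with the term for the split. The seed storage gene SESA3 was at 14.3 to 36.0 FPKM in trb123, against 0 to 1.67 in WT (4.26, adjusted p = 0.019), and reached 114 in 1 line 1 library. It was not called by limma with the term for the split, and neither it nor CRU3, the other seed storage gene tested, had an unadjusted p under 0.05. All root and shoot markers were detected in each group. Fewer cells of a type and less RNA per cell cannot be told apart in whole seedlings, and the part of organ proportions in the members' values was not tested.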

How the data were processed

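Expression was measured by stranded polyA RNA-seq (DNBSEQ, per the labels' protocols). The authors deposited FPKM rounded to 2 decimals in 4 tables side by side, 1 per group. The submitters' processing notes name STAR 2.7.1, DESeq2 and TAIR10, with no roles, and how reads were counted is not given in the sources used here. Line 1 values with a decimal comma were read as points, and repeated IDs, which hold the same values, were used once. The 20114 genes listed in all tables were joined. Genes with at least 1 FPKM in at least 3 libraries (18700) were tested on log2(FPKM + 1) with limma 3.58.1 (R 4.3.3), as a linear model of 4 group means with a trended, moderated variance, two-sided and adjusted by Benjamini-Hochberg within each of 6 comparisons. No count test was run. Depth was inferred from the steps of low values in single-exon genes, with 89.0% to 94.6% of 70 to 133 values per library within 0.25 of a whole fragment. FPKM give no counting interval of their own, so errors are those between libraries. The code was tested on simulated data. The genes named were all members, the TRB genes and the 5 genes nearest to STZ. List genes were named where called with a log2 fold change of at least 1 in size. A few other list genes (the smaller rises of GSH1, GSH2 and PCS1, and TCH2, EXPA7, COBL9 and CRU3) were named after their values were seen. Members and lists were chosen with earlier results of these data known. Alternatives covered thresholds, pseudocount, filters, scaling, moderation, the samples fitted, a replicate block, a term for the split and leaving out each library.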

Additional observations from a re-analysis of the deposited data

Results flagged for a closer look

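In 6 members the effect against WT differed between the mutants, by the test of both trb45 lines against trb123. Over all genes 59.6% were called in that test. The log2 differences were -1.97 for ZAT12, -0.96 for STZ, -0.78 for AZF3, -0.60 for ZAT7, -0.52 for ZAT8 and 0.80 for ZAT5. Of these, ZAT7 and ZAT8 did not pass without trb123 replicate 2. For both, line 1 libraries overlapped those of trb123, and only line 2 lay wholly below them.

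The effect against WT was called different between line 1 and line 2 for ZAT7 (0.84) and ZAT8 (0.86), beside 4.63% of all genes. They are near-identical neighbours whose reads may have been shared, and they passed the filter on low values only through line 1 and trb123. Both were higher in 3 of 3 libraries of line 1 than in any library of line 2. Neither call was kept in a fit of the libraries of the lines alone, with the term for the split, or without any 1 of several libraries.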

How the results depend on the processing

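Low levels limit ZAT7, ZAT8 and ZAT11, and 3 libraries per group limit every test. The changes below are given without a cause, which was not tested. The 7 calls of members in trb123 against WT and the 6 of both trb45 lines against trb123 stayed within 1.5 times under every alternative run except the 2-fold threshold, which left 1 in both trb45 lines against trb123.

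The counts against WT for the trb45 lines describe the contrast that chose the family, and nothing is read from them. With a 2-fold threshold the members called were 1 for both trb45 lines against WT (7 in the main analysis), 4 for line 1 against WT (7), 2 for line 2 against WT (4), 1 for both trb45 lines against trb123 (6) and 0 for line 1 against line 2 (2). Over all 18700 genes that threshold left 404, 358, 666, 2255 and 80 calls, in the same order. At an adjusted p of 0.01 the members called were 2 for line 2 against WT (2757 of all genes) and 0 for line 1 against line 2 (4 of all genes). With the compared groups alone, line 1 against line 2 had 0 members called (5 at an unadjusted p under 0.05), and 2 of all genes. With the term for the split the members called were 2 for both lines against WT, 0 for line 2 against WT and 0 for line 1 against line 2. In the last 2, limma gave 3 and 1 members an unadjusted p under 0.05. Over all genes 1118, 127 and 5 were called. Leaving out 1 library at a time gave 2 to 4 members for line 2 against WT (3911 to 6652 of all genes). For line 1 against line 2 it gave 0 to 2 members (2 to 5172 of all genes). In line 1 against line 2 there were 0 without line 1 replicate 1 or 2, line 2 replicate 1 or 3, trb123 replicate 1 or 3, or WT replicate 1 or 2, and 1 without WT replicate 3.

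Signs turned only for differences that had not passed. ZAT6 in both trb45 lines against trb123 was 0.0297 with median-ratio scaling, 0.0167 with quantile normalization and 0.0886 with the term for the split. Leaving out 1 library at a time it ranged from -0.191 to 0.0318, and AZF1 in that comparison from -0.508 to 0.0177, both above 0 only without trb123 replicate 2. AZF1 in line 2 against WT was -0.0573 with the term for the split and ranged from -0.073 to 0.112 with 1 library left out, below 0 without line 2 replicate 1 (-0.0146), line 2 replicate 2 (-0.0348) or WT replicate 1. With the term for the split ZAT5 was 0.0246 in trb123 against WT, and in line 1 against line 2 ZAT5 was -0.0419 and ZAT6 0.0586. ZAT5 in trb123 against WT passed with median-ratio scaling (-0.37, adjusted p = 0.0346), quantile normalization (-0.35, adjusted p = 0.0378) and the compared groups alone (adjusted p = 0.0356).

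Replicate numbers did not pair the libraries in all groups. Correlations of same-numbered deviations across genes ran from -0.0558 to 0.318. The highest were those of line 2 with WT, 0.318 for replicate 2 and 0.222 for replicate 3. With the replicate block, 9 members were called in trb123 against WT, beside 11188 of the 18700 genes, adding ZAT5 (-0.29, adjusted p = 0.0352) and AZF1 (0.49, adjusted p = 0.0374). Line 1 against line 2 then had 1377 genes called (865 without the block). With the term for the split 5238 genes were called in trb123 against WT (11108 without it), 127 in line 2 against WT (5710) and 1118 in both lines against WT (5367). In line 1 against line 2, the count over all genes was 2 to 5172 when 1 library was left out, the highest without line 1 replicate 3.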
